A study of Mus musculus with 8 samples.

Results

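The genes described here encode 29 proteins of the lysosome, chosen by symbol: 9 cathepsins, 5 glycosidases, 4 proteins of sterol and lipid handling, 2 secreted cofactors, 5 membrane proteins, 3 proton pump subunits and the transcription factor Tfeb. All 29 were among the 12256 genes of the expression table. RNA came from monocyte-derived dendritic cells. The sort kept cells with high CD45, with CD11b, Ly6C and MHC class II and with intermediate CD11c, and left out cells with Ly6G. They came from hindbrain and spinal cord of C57Bl/6 mice with experimental autoimmune encephalomyelitis (EAE), a model of multiple sclerosis induced with the myelin peptide MOG35-55. At the peak of disease the mice received an intrathecal injection of 10 μl PBS or of 1000000 neural precursor cells (NPC) in the same volume, and cells were collected 7 days later. The series text puts the injection 2 to 4 days after clinical onset, and the sample protocols put it 4 days after. Each group held 4 libraries, PBS 1 to 4 and NPC A to D, each from a pool of 4 to 7 mice, so that differences between single animals are not seen. No genotype, age or sex was used to define the groups, and all mice carried the disease.

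Lysosomes are acidic organelles in which proteins, sugars, lipids and nucleic acids are broken down. The vacuolar proton pump acidifies them, soluble hydrolases do the cutting, and membrane proteins line the wall and export the products. Transcription factors of the TFEB family switch on many of these genes together through a DNA element named CLEAR. In dendritic cells the same cathepsins also trim the invariant chain and cut antigens for presentation on MHC class II.

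Levels are the authors' log2 normalised expression values (reads per 1000000 after scaling of each library, as log2, with no division by gene length), and differences are NPC minus PBS on that scale. The reads recovered from these values numbered 7702189 to 21068166 per PBS library and 2653818 to 7003542 per NPC library, 3.21 times as many on average in PBS (p = 0.0286 by exact permutation, two-sided, which is the lowest possible with 4 against 4 libraries), so depth and treatment cannot be told apart. Of the 29 genes, 24 had at least 100 reads in every library, and the fewest reads were 19, for Ctsk. PBS 1 and NPC A stood apart from the other 6 libraries in Fos, an immediate-early gene, at 7.95 and 8.28 against 9.65 to 10.18. PBS 3 had 18.6% of its reads from mitochondrially encoded genes, against 25.2 to 34.8% in the others. The list for the sorted cells held 7 genes, of which Cd74 and Ccr2 do not encode markers of the sort. All 7 were measured, 3 of them higher in NPC and none with an unadjusted p under 0.05. Their linear levels summed to 9152 to 11491 in PBS and 9193 to 13761 in NPC libraries. Ly6g, which marks neutrophils, is not in the table used here. The whole lists of other cell types summed to 170 to 314 and 208 to 344 for microglia (6 of 7 measured genes higher in NPC), 105 to 169 and 142 to 169 for neutrophils (6 of 7), 42.3 to 71.9 and 57.5 to 151 for conventional dendritic cells (6 of 6), 73.5 to 81.0 and 82.6 to 126 for T cells (6 of 8, without overlap of the sums), and 225 to 400 and 211 to 465 for border macrophages (4 of 4), whose Cd163 was at 0 reads in at least 1 library. Among the T cell genes, Cd4 (4.42 ± 0.39 in NPC against 3.81 ± 0.10 in PBS, mean ± SD of 4 libraries, as throughout) and Cd3e (4.50 ± 0.23 against 4.06 ± 0.20) were at an unadjusted p under 0.05 and higher in every NPC library; no gene of the other lists was at an unadjusted p under 0.05. The lists for B cells, NK cells, oligodendrocytes, astrocytes and neurons summed to at most 74.3 in any library. Of the neural precursor markers Sox2, Nes, Pax6 and Sox1, 0 of 4 are in the table. The part of these cells in the results below was not tested, and in sorted bulk RNA fewer cells of a type and less RNA per cell cannot be told apart.

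No lysosomal gene passed the test between groups. With limma and Benjamini-Hochberg adjustment across the table, 0 of the 29 passed at 0.05, beside 0% of all 12256 genes; the smallest adjusted p was 0.382, for Hexa. The 8 genes at an unadjusted p under 0.05 or with groups that did not overlap all had the lower mean in NPC libraries: Hexa, Gusb and Gaa of the glycosidases, the cofactors Psap and Grn, the sterol carrier Npc2, cathepsin Z (Ctsz) and Tfeb. At an unadjusted p under 0.05 there were 6 lower and 0 higher, beside 5.32% of all genes lower and 6% higher. Every NPC library lay below every PBS library for 7 of 29 genes and above for 0 of 29, beside 3.25% and 3.53% of all genes. The rank correlation, across genes, of a library's deviations from the gene means with transcript GC averaged 0.165 in PBS and -0.136 in NPC libraries (p = 0.0571 by exact two-sided permutation over libraries). It was 0.43, 0.16, 0.17 and -0.098 in PBS 1 to 4 and -0.23, -0.16, 0.034 and -0.18 in NPC A to D. The groups thus overlapped, and PBS 1 was the highest. The part of this correlation in these counts was tested only by the correction that follows. The count of 7 was 3 after correction for GC content and transcript length and 4 after quantile normalization. Of all genes, 3.18% and 3.92% were lower in NPC without overlap under these settings. Most differences were small: 17 genes had a lower mean and 11 a higher mean, Ctsk was level, and the median difference was -0.072, beside 47.5% of all genes lower and a median of 0.017. For 28 of the 29 genes, all but Atp6v0d2, the 95% interval lay inside a 2-fold difference, and for 17 it lay inside a 1.5-fold difference.

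**Figure D1:**
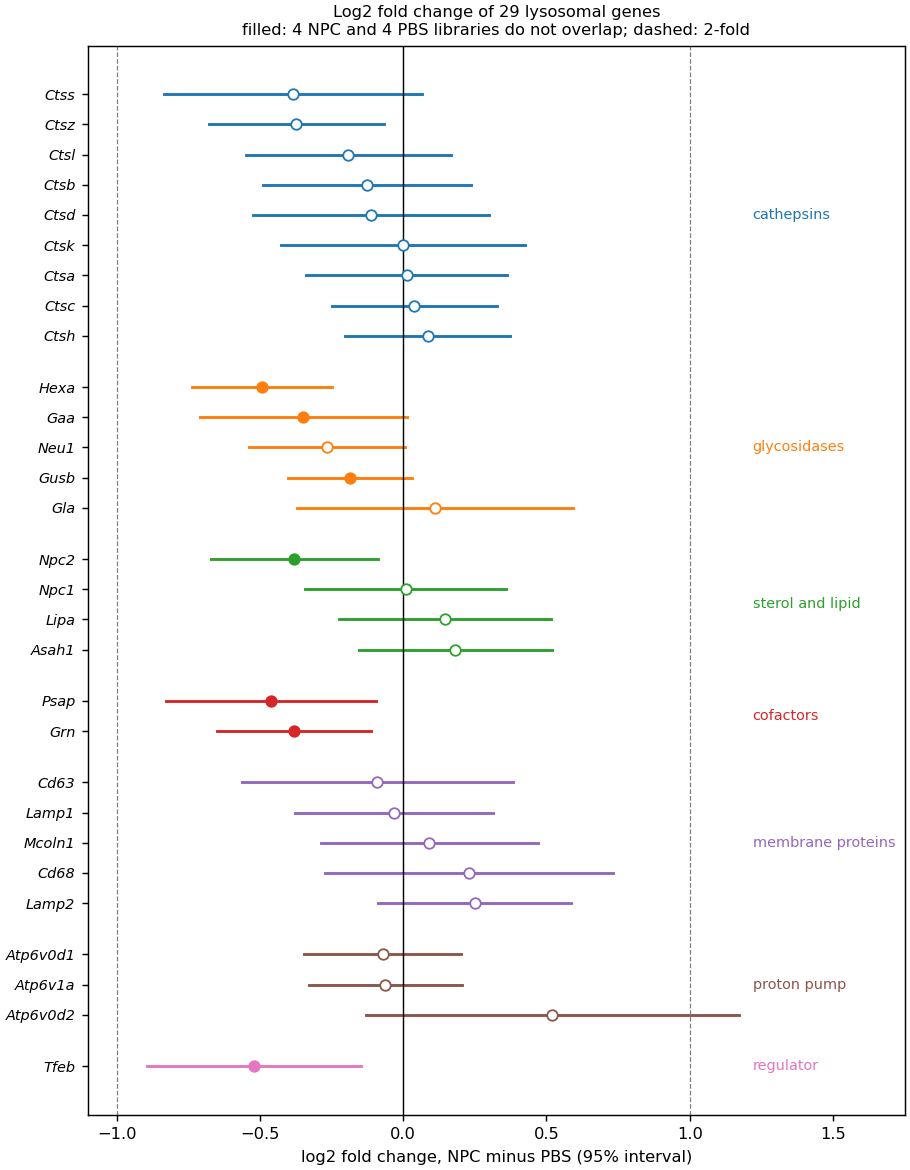
Log2 fold change (NPC minus PBS, x axis) of each of the 29 genes with its 95% interval from limma, grouped by role. Filled points mark the 7 genes whose 4 NPC libraries all lay below the 4 PBS libraries; dashed lines mark a 2-fold difference, which only the interval of Atp6v0d2 crosses.

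By role, the median difference was -0.42 for the 2 cofactors, -0.27 for the 5 glycosidases and -0.11 for the 9 cathepsins. It was -0.063 for the 3 proton pump subunits, 0.078 for the 4 sterol and lipid genes and 0.091 for the 5 membrane proteins. The groups did not overlap for 3 of 5 glycosidases, 2 of 2 cofactors and 1 of 4 sterol and lipid genes. Over all genes the share was 6.78% (3.25% lower and 3.53% higher in NPC). The groups overlapped for all 9 cathepsins, 5 membrane proteins and 3 pump subunits. After correction for GC content and length only Hexa, Psap and Grn were apart. After quantile normalization the genes apart were Ctss, Hexa, Gusb and Tfeb. Leaving out 1 library moved the small medians by role. The cathepsin median ran from -0.22 (without NPC D) to -0.011 (without NPC A). That of the sterol and lipid genes turned to -0.029 without NPC D and -0.023 without PBS 1, and that of the pump subunits to 0.029 without NPC A and 0.0058 without PBS 4. The membrane protein median was 0.24 without NPC B. No test of the difference between roles was made.

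Tfeb, the transcription factor that drives lysosomal genes, was itself weakly transcribed, with 38 to 395 reads per library. Its log2 level was 4.52, 4.34, 4.32 and 4.11 in PBS 1 to 4 and 4.01, 4.09, 3.42 and 3.70 in NPC A to D. All 4 NPC libraries lay below the PBS libraries, NPC C and NPC D by most, while PBS 4 and NPC B nearly met. The difference was -0.52 (SE 0.17, 95% interval -0.89 to -0.15; NPC 0.697 times the PBS level; limma adjusted p = 0.390), and -0.27 after correction for GC content and length. Its transcript is 63.2% G and C, the highest share among the 29 genes, against a median of 49.4% over all genes. The related factors Tfe3, Mitf and Tfec, which bind the same element, had differences of 0.088, 0.081 and 0.19, all with overlapping groups. Tfeb lies on chromosome 17 (47737030 to 47792419, plus strand, mm10, GENCODE vM21). The values are per gene, so its transcripts are not told apart, and the annotation used for counting is not given.

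The element itself was looked for in the promoter windows that RefSeq gives for 24 of the 29 genes (250 bases before to 50 after a start, build GRCm38.p6). TCACGTGA, the centre of the CLEAR element, reads the same on both strands and holds the E-box core CACGTG. It was in the windows of 6 of the 24 genes (25%), beside 1.12% of the 27025 genes with a window and 2.34% of the 8382 of these that are in the expression table. CACGTG was in 9 of 24 (37.5%), beside 8.09% and 12%. The 6 genes are shown with 16 bases on each side of the first match, in capitals, because they carry the sequence that Tfeb family proteins bind. Ctsa lies at chr2:164833744-164833783 and Mcoln1 at chr8:3500457-3500496, both on the plus strand. On the minus strand, Ctsd lies at chr7:142387903-142387942, Gla at chrX:134601210-134601249, Atp6v1a at chr16:44139368-44139407 and Atp6v0d1 at chr8:105566045-105566084.
Ctsa: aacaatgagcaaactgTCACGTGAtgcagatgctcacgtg
Ctsd: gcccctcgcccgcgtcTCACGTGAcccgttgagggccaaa
Gla: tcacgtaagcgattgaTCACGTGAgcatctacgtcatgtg
Mcoln1: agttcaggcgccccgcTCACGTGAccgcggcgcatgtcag
Atp6v0d1: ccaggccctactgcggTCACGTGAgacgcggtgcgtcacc
Atp6v1a: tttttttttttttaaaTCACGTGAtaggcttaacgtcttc

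The match in Ctsd, the gene of the aspartic protease cathepsin D, starts 99 bases before the transcription start, and that in the channel gene Mcoln1 starts 46 bases before it. Ctsa and Gla each hold a further match. In these 6 genes the differences ran from -0.11 (Ctsd) to 0.11 (Gla), with a median of -0.026, and the groups overlapped in all 6. Of the 7 genes whose groups did not overlap, 6 had neither motif in the window and Gaa had CACGTG alone. The 15 genes with neither motif had a median of -0.27 and ran from -0.52 (Tfeb) to 0.25 (Lamp2). In this class 11 had a lower mean in NPC libraries, counting Ctsk, which was nearly level, and 4 a higher mean. Over all genes 47.5% had a lower mean. The median transcript GC was 54% in the 6 genes with TCACGTGA, 55.1% in the 7 non-overlapping genes and 49.4% in the other 22. A match is a description of letters and was not tested as a site.

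The promoters of the 4 genes with an unadjusted p under 0.05 and non-overlapping groups outside the regulator are shown for the 100 bases before the start, since none of their windows holds either motif. Hexa lies at chr9:59539440-59539539, Psap at chr10:60277528-60277627 and Grn at chr11:102430407-102430506 on the plus strand, and Npc2 at chr12:84773113-84773212 on the minus strand. For Psap the first of its RefSeq starts is shown; another has its 100 bases at chr10:60284361-60284460.
Hexa: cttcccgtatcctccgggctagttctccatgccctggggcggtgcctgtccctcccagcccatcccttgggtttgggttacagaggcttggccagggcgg
Psap: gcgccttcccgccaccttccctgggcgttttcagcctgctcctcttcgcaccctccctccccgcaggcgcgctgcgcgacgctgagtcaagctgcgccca
Grn: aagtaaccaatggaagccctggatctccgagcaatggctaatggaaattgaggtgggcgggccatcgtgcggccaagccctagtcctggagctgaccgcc
Npc2: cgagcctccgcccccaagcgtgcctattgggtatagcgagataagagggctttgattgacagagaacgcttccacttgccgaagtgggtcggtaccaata

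**Figure D2:**
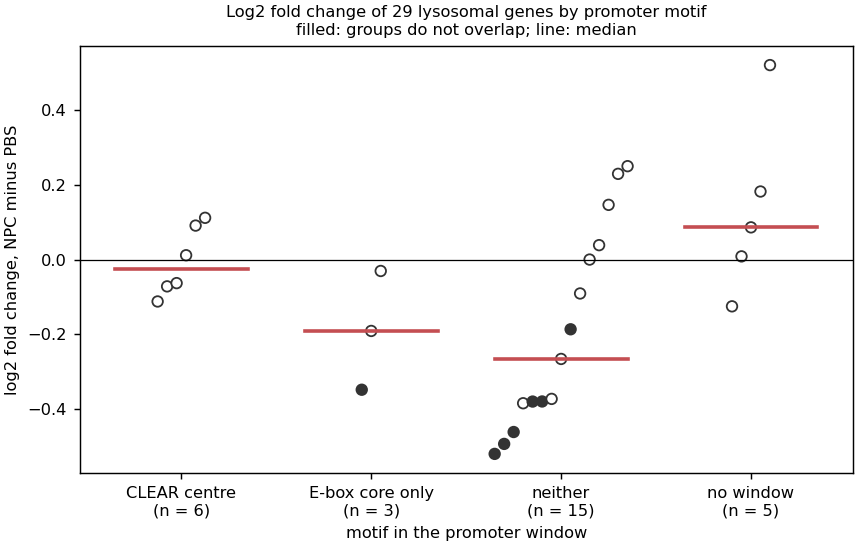
Log2 fold change (NPC minus PBS, y axis) of the 29 genes by the motif in their promoter windows (x axis). Points are genes, filled where the groups do not overlap, and lines are medians: -0.026 with the CLEAR centre, -0.19 with the E-box core only, -0.27 with neither and 0.086 for the 5 genes without a window.

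Hexa, which encodes the alpha subunit of the hexosaminidases that degrade GM2 ganglioside, had the smallest p of the 29 genes. Its log2 level was 8.30, 8.57, 8.46 and 8.36 in PBS 1 to 4 and 7.91, 8.01, 8.01 and 7.78 in NPC A to D. The gap between the lowest PBS and the highest NPC library was wider than the range within either group. The difference was -0.49 (SE 0.11, 95% interval -0.74 to -0.25; NPC 0.710 times the PBS level; limma adjusted p = 0.382), resting on 659 to 7459 reads per library. Over 18 alternative settings the difference ran from -0.54 to -0.37. The last is the value corrected for GC content and length, and the transcript is 55.1% G and C. The groups stayed apart after that correction, after quantile normalization, with equal medians and at equal read depth. The other settings keep the order of the values or leave libraries out, so they could not make the groups meet. Hexa lies on chromosome 9 (59539540 to 59565109, plus strand), and 255 of its exon bases overlap Tmem202 on the other strand. The strand setting is not given, so it is not known whether reads of both genes were told apart there.

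The other glycosidases were split. Gusb, which encodes beta-glucuronidase, was at 7.26, 7.41, 7.32 and 7.36 in PBS 1 to 4 and at 7.15, 7.25, 7.10 and 7.10 in NPC A to D. PBS 1 and NPC B nearly touched, and the difference of -0.19 (SE 0.10; limma adjusted p = 0.507) was -0.10 at equal read depth. Gaa, the gene of acid alpha-glucosidase, which degrades glycogen, was at 4.999, 5.12, 4.98 and 4.996 in PBS 1 to 4 and at 4.75, 4.15, 4.97 and 4.83 in NPC A to D. NPC B alone was far below and NPC C was level with PBS 3, so that the difference of -0.35 (SE 0.17; limma adjusted p = 0.459) was -0.17 without NPC B; it was -0.19 after correction for GC content and length. Neu1, which encodes a sialidase, was at 5.50 ± 0.15 in PBS and 5.23 ± 0.14 in NPC libraries (-0.27, 95% interval -0.54 to 0.0047), and its groups overlapped. Gla, the gene of alpha-galactosidase A, was at 6.51 ± 0.31 and 6.62 ± 0.49, lowest in PBS 1 and NPC A and highest in NPC D.

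**Figure D3:**
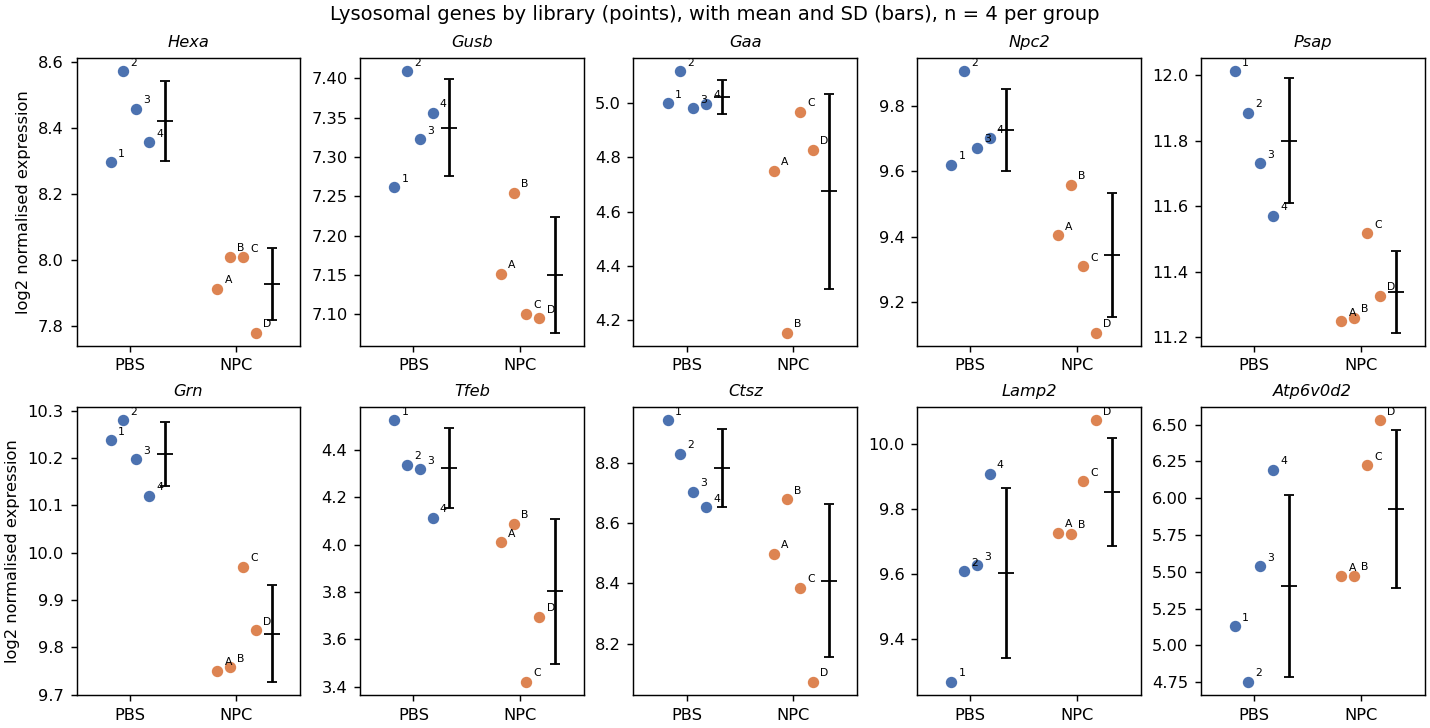
Log2 normalised expression (y axis) of 10 genes in the 4 PBS and 4 NPC libraries, with library names beside the points and the mean with SD as bars. Hexa, Gusb, Gaa, Npc2, Psap, Grn and Tfeb have every NPC library below every PBS library; Ctsz, Lamp2 and Atp6v0d2 overlap.

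The cofactors Psap and Grn were lower together. Psap encodes prosaposin, from which the saposins that present sphingolipids to hydrolases are cut, and Grn encodes progranulin, which travels to lysosomes with prosaposin. Psap was at 12.01, 11.88, 11.73 and 11.57 in PBS 1 to 4 and at 11.25, 11.26, 11.52 and 11.33 in NPC A to D. PBS 4 and NPC C lay close, and the difference was -0.46 (SE 0.17, 95% interval -0.83 to -0.09; NPC 0.726 times the PBS level; limma adjusted p = 0.391). Grn was at 10.24, 10.28, 10.20 and 10.12 in PBS 1 to 4 and at 9.75, 9.76, 9.97 and 9.84 in NPC A to D. Its 4 PBS libraries lay close together and above all NPC libraries, with a difference of -0.38 (SE 0.12, 95% interval -0.65 to -0.11; limma adjusted p = 0.390). Corrected for GC content and length, the differences were -0.37 for Psap and -0.25 for Grn, and both still had groups that did not overlap. After quantile normalization the groups of both genes overlapped. Their difference within a library was nearly constant in NPC libraries, at 1.49 to 1.55, against 1.45 to 1.77 in PBS libraries. The groups overlapped in that difference (exact two-sided permutation p = 0.343). Psap lies on chromosome 10 (60277627 to 60302597) and Grn on chromosome 11 (102430315 to 102437048), both on the plus strand.

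Sterol export uses the products of Npc2, which carries cholesterol in the lumen, and Npc1, which takes it over in the membrane, and the groups were apart for the first of these genes and overlapped for the second. Npc2 was at 9.62, 9.91, 9.67 and 9.70 in PBS 1 to 4 and at 9.40, 9.56, 9.31 and 9.11 in NPC A to D, a difference of -0.38 (SE 0.13, 95% interval -0.67 to -0.09; NPC 0.769 times the PBS level; limma adjusted p = 0.390). PBS 1 and NPC B nearly met, and after correction for GC content and length the difference was -0.35 with overlapping groups. Npc1 was at 7.71 ± 0.13 in PBS and 7.72 ± 0.35 in NPC libraries (0.0085, 95% interval -0.34 to 0.36). Within a library Npc2 exceeded Npc1 by 1.85 to 2.19 in PBS and by 1.96, 2.17, 1.29 and 1.07 in NPC A to D, so that NPC C and NPC D were low and the groups overlapped (exact two-sided permutation p = 0.314, adjusted p = 0.343 over 4 partner pairs chosen after the values were seen). Lipa, the gene of lysosomal acid lipase, which frees cholesterol from its esters, was at 8.32 ± 0.30 and 8.46 ± 0.27. Asah1, encoding acid ceramidase, was at 8.82 ± 0.32 and 9.001 ± 0.096.

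**Figure D4:**
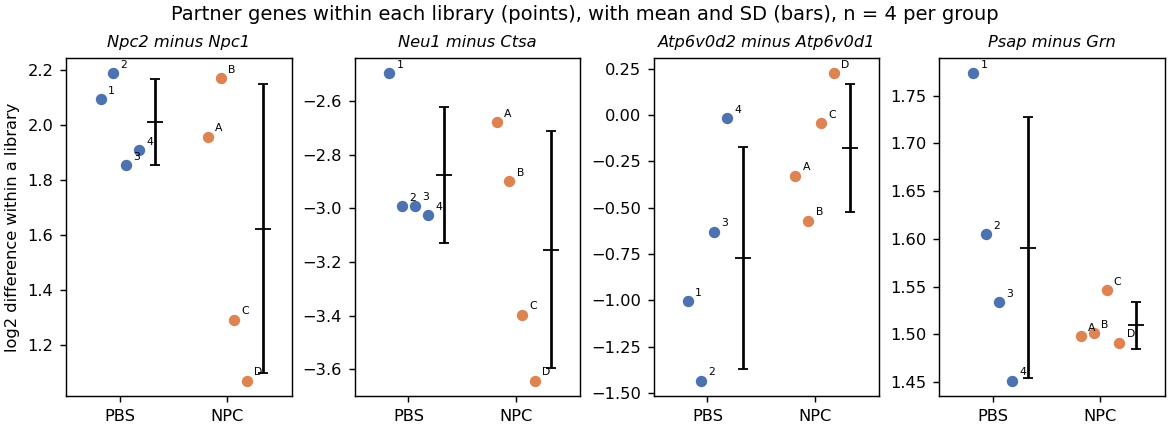
Difference in log2 level between partner genes within each library (y axis) for the 4 PBS and 4 NPC libraries, with mean and SD as bars. The groups overlap for all 4 pairs.

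The groups overlapped for all 9 cathepsins, the proteases of the lysosome, on the values as deposited; those of Ctss were apart after quantile normalization and those of Ctsz with equal medians. Ctsz, a carboxypeptidase of the papain family, was the 1 cathepsin at an unadjusted p under 0.05. It was at 8.94, 8.83, 8.70 and 8.65 in PBS 1 to 4 and at 8.50, 8.68, 8.39 and 8.07 in NPC A to D, with NPC B inside the PBS range (-0.37, SE 0.14; limma adjusted p = 0.396; -0.19 after correction for GC content and length). Ctss, encoding cathepsin S, which cleaves the invariant chain in antigen-presenting cells, was at 12.75, 13.06, 12.48 and 12.91 in PBS 1 to 4 and at 12.31, 12.40, 12.41 and 12.54 in NPC A to D. NPC D lay above PBS 3, and the difference was -0.38 (SE 0.21, 95% interval -0.83 to 0.065; limma adjusted p = 0.508). Ctsl, whose product has the same role in thymic epithelium, was at 8.62 ± 0.33 and 8.43 ± 0.19, highest in PBS 4; 32.9% of its exon bases overlap an antisense gene or a pseudogene, so its reads are uncertain.

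The remaining cathepsins lay closer. Ctsb and Ctsd, the main endoproteases of macrophage lysosomes, were at 11.13 ± 0.12 and 11.44 ± 0.14 in PBS and at 11.003 ± 0.25 and 11.33 ± 0.33 in NPC libraries. Both were lowest in NPC A and highest in NPC D, and 808 exon bases of Ctsd overlap the gene model Gm49369 on the same strand. Ctsc, whose product activates serine proteases of granules, was at 10.19 ± 0.12 and 10.23 ± 0.11, and Ctsh, an aminopeptidase gene, at 8.93 ± 0.11 and 9.02 ± 0.22. Ctsa, which encodes the protective protein that holds beta-galactosidase and the product of Neu1 in a complex, was at 8.37 ± 0.11 and 8.38 ± 0.35. Ctsk, the collagen-degrading protease of osteoclasts, was at 2.83 ± 0.16 and 2.83 ± 0.29 on 19 to 122 reads per library. The 95% intervals of these 6 differences lay between -0.52 and 0.43.

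Per kilobase of annotated exon, Ctss was the most abundant of the 29 transcripts in PBS libraries, at 12.36 on the log2 scale. Psap (10.34) and Ctsd (10.21) followed, in the same order when the longest coding transcript was used as the length. Ctsk (2.24), Tfeb (1.82) and Mcoln1 (1.46) were the lowest; by the longest transcript the lowest were Gaa (3.16), Tfeb (3.10) and Ctsk (2.24). Together the 29 genes took 3.46 to 3.84% of the reads outside mitochondrially encoded genes in PBS libraries and 3.01 to 3.34% in NPC libraries, without overlap. Ctss and Psap made up 35.3 to 45.9% of those reads, and without them the shares were 2.00 to 2.20% and 1.87 to 2.14%, which overlap.

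Among the membrane proteins the groups overlapped for all 5 genes. Lamp2, a heavily glycosylated wall protein that also serves chaperone-mediated autophagy, was at 9.27, 9.61, 9.63 and 9.91 in PBS 1 to 4 and at 9.73, 9.72, 9.89 and 10.07 in NPC A to D. PBS 1 was the lowest and PBS 4 lay inside the NPC range (0.25, SE 0.16; limma adjusted p = 0.570); the difference was 0.14 without PBS 1 and 0.055 after correction for GC content and length, the transcript being 38.7% G and C. Lamp1, its homologue, was at 10.21 ± 0.24 and 10.18 ± 0.18. Cd68, a macrophage relative of both, was at 8.45, 8.88, 8.76 and 9.04 in PBS 1 to 4 and at 8.396, 8.71, 9.41 and 9.54 in NPC A to D, where NPC C and NPC D stood above all others. Cd63, a tetraspanin gene, was at 5.77 ± 0.38 and 5.67 ± 0.41, and Mcoln1, the gene of the calcium channel TRPML1, at 4.37 ± 0.22 and 4.47 ± 0.31.

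The vacuolar proton pump has alternative d subunits. Atp6v0d2, the form enriched in osteoclasts and some macrophages, was at 5.13, 4.75, 5.54 and 6.19 in PBS 1 to 4 and at 5.47, 5.47, 6.22 and 6.53 in NPC A to D. Its SD among PBS libraries (0.62) was the highest of the 29 genes, and PBS 4 lay above NPC A and NPC B. The difference of 0.52 (SE 0.30, 95% interval -0.13 to 1.17; limma adjusted p = 0.536) was 0.30 without PBS 2 and 0.78 without PBS 4. Atp6v0d1, the form found in most cells, was at 6.17 ± 0.032 and 6.10 ± 0.23, and the catalytic subunit gene Atp6v1a at 8.33 ± 0.19 and 8.27 ± 0.10. Within a library the level of Atp6v0d2 minus that of Atp6v0d1 ran from -1.43 to -0.017 in PBS libraries and from -0.57 to 0.22 in NPC libraries, with overlap.

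NPC A was the lowest of the 8 libraries for 12 of the 29 genes, and their median deviation from the gene means was -0.25 there, against medians of 0.0021 to 0.026 over all genes. NPC D was the highest for 11 genes, among them Ctsd, Cd68, Npc1, Lipa and Atp6v0d2, and the lowest for 5 (Ctsz, Hexa, Gusb, Neu1 and Npc2). PBS 1 was the lowest for 6 genes and the highest for Psap, Neu1, Ctsz and Tfeb. The 22 genes whose groups overlapped had a median deviation of -0.26 in NPC A and 0.22 in NPC D, and no test was made of that spread. Without PBS 1 and NPC A together, the difference was -0.53 for Hexa, -0.52 for Tfeb, -0.43 for Npc2, -0.36 for Psap and -0.34 for Grn.

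**Figure D5:**
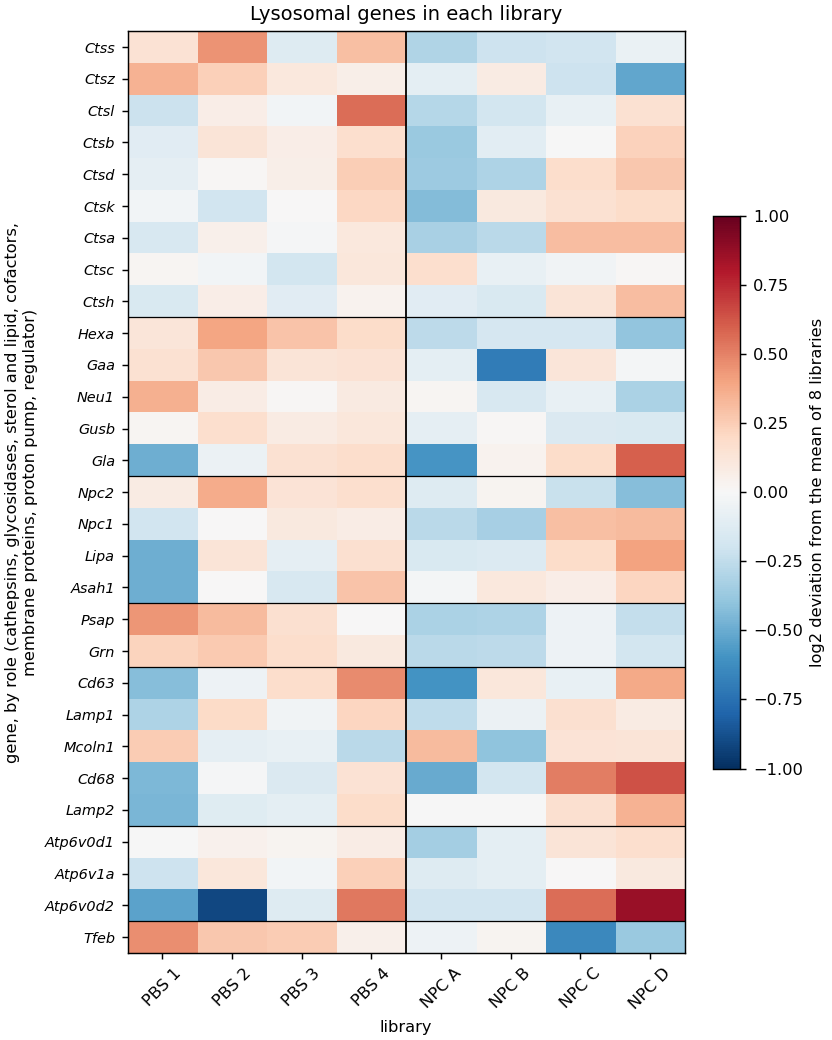
Deviation of each of the 29 genes (rows, by role) from its mean over 8 libraries on the log2 scale (colour), for PBS 1 to 4 and NPC A to D (columns). Hexa, Psap, Grn and Tfeb are above their means in PBS and below or near them in NPC libraries, while Gla, Cd63 and Cd68 are low in PBS 1 and NPC A.

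Other lysosomal genes, listed by function, also gave no call. Of 127 further measured genes, 75 had a lower and 52 a higher mean in NPC libraries, 13 were lower and 1 higher at an unadjusted p under 0.05, and 0 passed the adjusted test. That is 11.02% at an unadjusted p under 0.05 in either direction, beside 11.3% of all genes (5.32% lower and 6% higher). The groups did not overlap for 13 lower and 2 higher, which is 11.8%. Over all genes this share was 6.78% (3.25% lower and 3.53% higher). Among 44 other hydrolases the median was -0.018 and 4 (9.09%) were lower at an unadjusted p under 0.05, beside 5.32% of all genes lower and 11.3% in either direction. They included Acp5, the gene of tartrate-resistant acid phosphatase (6.79 ± 0.13 in NPC against 7.15 ± 0.17 in PBS), the phospholipase gene Pla2g15 (4.87 ± 0.25 against 5.25 ± 0.041) and Sumf1, whose product activates sulfatases in the endoplasmic reticulum (7.05 ± 0.22 against 7.41 ± 0.14). Their adjusted p lay between 0.390 and 0.391 in limma's test.

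Of 15 other subunits and accessory proteins of the proton pump, 13 had a lower mean in NPC libraries, with a median of -0.15, and 3 were lower at an unadjusted p under 0.05. Over all genes 47.5% had a lower mean and 5.32% were lower at that p. Atp6v1g1 was at 5.34 ± 0.21 in NPC against 5.74 ± 0.11 in PBS, Atp6v1f at 4.67 ± 0.16 against 5.03 ± 0.12 and Atp6v0b at 6.22 ± 0.14 against 6.56 ± 0.25. Atp6v1b2, with the next smallest p, had groups that did not overlap (7.28 ± 0.14 against 7.46 ± 0.057). Among 27 other membrane proteins the median was -0.067. Of these, 1 (3.70%) was at an unadjusted p under 0.05, beside 11.3% of all genes. The groups did not overlap for 2 (7.41%), beside 6.78% of all genes. Scarb2, the gene of LIMP-2, a lysosomal membrane protein, was at 6.37 ± 0.085 in NPC against 6.69 ± 0.080 in PBS, with groups that did not overlap (-0.32, SE 0.10; limma adjusted p = 0.390). Tmem175 (0.23), Clcn7 (-0.26) and Tmem192 (-0.22), a channel, a chloride transporter and a membrane protein, completed the 4 with the smallest p; Tmem175 was higher in every NPC library.

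Of 15 genes that sort enzymes to lysosomes, 8 had a higher and 7 a lower mean. In this list 1 (6.67%) was at an unadjusted p under 0.05, beside 11.3% of all genes. The groups did not overlap for 1 (6.67%), beside 6.78% of all genes. Igf2r, the large mannose 6-phosphate receptor, was at 7.34 ± 0.20 in NPC against 7.64 ± 0.065 in PBS without overlap, while M6pr, the small one, had a difference of -0.019. Gga2 (-0.21), Gnptab (0.22) and Gga1 (-0.30) had groups that overlapped. A list of 22 genes held the related factors Tfe3, Mitf and Tfec and genes that control the TFEB family. Of these 22, 13 had a lower and 9 a higher mean, with a median of -0.066. At an unadjusted p under 0.05 there were 3 lower and 1 higher, beside 5.32% and 6% of all genes. The groups did not overlap for 4 lower and 1 higher, beside 3.25% and 3.53% of all genes. The 4 with the smallest p were Lamtor5, Akt1, Fnip1 and Lamtor1. Lamtor5 and Lamtor1 encode parts of the Ragulator complex, which docks mTORC1 on lysosomes. They were at 4.88 ± 0.25 and 4.71 ± 0.21 in NPC against 5.33 ± 0.080 and 5.04 ± 0.15 in PBS. Akt1, a kinase upstream of mTORC1, was at 5.04 ± 0.21 against 5.44 ± 0.18. Fnip1, the partner of folliculin, was higher in every NPC library (7.00 ± 0.19 against 6.69 ± 0.10). Of 11 cathepsin inhibitors 4 were measured. Cstb, encoding stefin B, was at 8.92 ± 0.11 in NPC against 9.25 ± 0.14 in PBS without overlap. Cst3, Cst7 and Serpinb6a had differences of -0.11, 0.15 and 0.22.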

How the data were processed

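The file deposited by the authors gives log2 expression, already normalised, of 12256 genes in 8 libraries. The submitters' processing notes name mm10, limma, HTSeq 0.5.3, STAR 2.3.0 and Trimmomatic. Which annotation, strand setting or filters applied is not given in the sources used here. The linear values are (whole reads + 0.5) times 1 step per library, 100% of them within a tolerance of 0.01, from which reads were recovered for depth. Samples were grouped by title, and nothing pairs them. The log2 values as deposited were fitted in R 4.3.3 by limma 3.58.1 with treatment as the only term and a trend of variance on mean; p-values are two-sided, with Benjamini-Hochberg adjustment over the table and a threshold of 0.05; the fit was tested on simulated data. Where a library has 1 value, groups were compared by exact permutation (scipy 1.17.1). Plots used matplotlib 3.10.9. Lengths, positions and GC content came from GENCODE vM21, where 92.8% of symbols matched 1 gene, and promoters from RefSeq (GRCm38.p6). All 29 genes were named; values per library are given for those at an unadjusted p under 0.05, with non-overlapping groups or with the smallest p of their role, and for up to 4 genes of each other list. Ctss and Cd68 per library, M6pr, Tfe3, Mitf, Tfec and the partner pairs were added after values were seen. The genes, lists and alternatives were chosen with earlier results of these data known. Protein sequences were not analysed here, and some genes are not reported here. Pools are separate per the labels, and reads may include PCR duplicates, so depth overstates precision.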

Additional observations from a re-analysis of the deposited data

Results flagged for a closer look

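In 58 groups of 4 libraries (29 genes in PBS and in NPC), 2 had a library set apart from its group by a gap that exceeded Dixon's 95% critical value; chance gives about 1 in 20 such groups. Ctsk was at 2.40 in NPC A, on 21 reads, against 2.93 to 3.02 in the other NPC libraries. Gaa was at 5.12 in PBS 2 against 4.98 to 4.999 in the other PBS libraries.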

How the results depend on the processing

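The count of genes passing the adjusted test was 0, among the 29 and over the whole table, in all 18 alternatives. Of the 29 genes, 5 to 9 had an unadjusted p under 0.05 in either direction across these alternatives, beside 792 to 2139 of all genes tested. With the lower mean in NPC there were 5 to 8 of the 29, beside 3.04 to 8.56% of all genes. The groups did not overlap for 7 genes, for 4 after quantile normalization (Ctss, Hexa, Gusb and Tfeb), for 5 at equal read depth (Hexa, Neu1, Npc2, Psap and Grn) and for 3 after GC and length correction (Hexa, Psap and Grn). With equal medians Ctsz and Neu1 took the place of Gaa and Gusb among the 7. Of all genes, 3.92%, 2.41%, 3.18% and 3.35% did not overlap with the lower values in NPC under these settings, beside 3.25% as deposited. With 1 library left out, 7 to 9 of the 29 were lower in NPC without overlap, beside 3.83 to 7.36% of all genes. Groups of fewer libraries have fewer values that can overlap. Without PBS 4 there were 8 lower, and Lamp2 was higher in NPC without overlap. The glycosidase median was -0.36 at equal read depth and -0.13 after GC and length correction, where Tfeb was at -0.27. With 1 library left out, the median over the 29 genes ran over -0.14 to 0.0058 and that of the other membrane proteins over -0.081 to -0.013. That of the list of TFEB family factors and their control genes ran over -0.11 to 0.0052. The last was -0.032 at equal read depth and -0.0098 without PBS 1 and NPC A. The cause of these shifts was not tested. No paired analysis was possible because the PBS libraries carry numbers and the NPC libraries letters. Planned protein comparisons were not run.

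The sign changed for genes whose difference was near 0. After quantile normalization, the value was -0.020 for Ctsa, -0.017 for Ctsc and -0.020 for Npc1. At equal read depth, the value was -0.018 for Ctsa, 0.32 for Ctsk and -0.025 for Npc1. After GC and length correction, the value was -0.11 for Ctsc, 0.022 for Ctsd, 0.037 for Ctsk, -0.0078 for Npc1, 0.026 for Lamp1 and 0.038 for Atp6v0d1. With library weights, the value was 0.099 for Ctsk. With voom weights, the value was 0.034 for Ctsk. With equal medians, the value was 0.0096 for Ctsk. With 1 added to linear values, the value was 0.0017 for Ctsk. Without PBS 1 and NPC A, the value was 0.14 for Ctsk and 0.016 for Atp6v0d1. With 1 library left out, the differences ran over -0.090 to 0.12 for Ctsa, -0.016 to 0.084 for Ctsc, -0.0017 to 0.15 for Ctsh, -0.063 to 0.14 for Ctsk, -0.070 to 0.33 for Gla, -0.096 to 0.12 for Npc1, -0.14 to 0.048 for Lamp1, -0.25 to 0.094 for Cd63, -0.14 to 0.029 for Atp6v0d1 and -0.14 to 0.0058 for Atp6v1a.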
